A study of Mus musculus with 4 samples.

Results

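The non-clustered delta protocadherins are cell-surface cadherins encoded by genes that stand alone in the genome, unlike the alpha, beta and gamma protocadherins, which share clustered loci. The 9 genes described here, Pcdh1, Pcdh7, Pcdh8, Pcdh9, Pcdh10, Pcdh17, Pcdh18, Pcdh19 and Pcdh20, were taken by symbol, and all 9 were found among the 32681 genes of the deposited table. RNA sequencing was done on 4 libraries from primary neurons of wild-type CD-1 mouse neocortex at embryonic day 13. All cultures were kept in Neurobasal medium with B27, GlutaMax, pyruvate and antibiotics, and all were transfected. The 2 control libraries received a control short hairpin RNA (shRNA), and the other 2 an shRNA against DcpS, the scavenger decapping enzyme that breaks down the cap remaining after mRNA decay from the 3′ end. The titles name a single hairpin against DcpS. The labels do not say how long the cultures were grown, whether transfected cells were separated from the rest, or whether the replicates are separate animals or cultures. The p-values therefore speak only of the spread among these libraries, part of which can be technical.

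Delta protocadherins have cadherin repeats outside the cell that bind mostly the same protein on the facing cell, and a cytoplasmic tail that differs between subfamilies. The delta-1 group, with Pcdh1, Pcdh7 and Pcdh9, carries a tail motif that binds protein phosphatase 1. In the delta-2 group, with Pcdh8, Pcdh10, Pcdh17, Pcdh18 and Pcdh19, several tails recruit the WAVE complex, which starts branched actin filaments. Pcdh20 is placed apart from both groups in several classifications. In the developing cortex these proteins are known for sorting neurons, guiding axons and shaping synapses.

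The comparison asked which transcripts differ after depletion of DcpS, and Dcps itself was first checked. Normalised reads of Dcps (reads divided by a size factor per library) numbered 499.8 and 506.6 in control cultures 1 and 2, against 114.5 and 119.6 in DcpS shRNA cultures 1 and 2, an order kept below, which left 23.3% of the control mean. Recovered reads per library ran from 17754768 to 21793685. Libraries of 1 group differed by more than sampling noise (chi-square per degree of freedom 2.04 and 3.73). Neuronal transcripts were abundant: 6 pan-neuronal genes, such as Tubb3 and Map2, summed to 78778 to 82723 normalised reads per library. Marker lists of other cells summed to fewer reads, the highest being the 7 radial glia genes, at 26802 to 28885. Such sums are not corrected for list size or gene length, and single genes such as Vim of radial glia exceeded the pan-neuronal Snap25. Microglial markers summed to 142 to 156 normalised reads, with P2ry12, a microglial receptor, listed at 0 in 1 control and 1 DcpS shRNA library. Meningeal fibroblast markers summed to 10411 and 11520 in control cultures, against 6477 and 6185 after DcpS shRNA. In these bulk samples fewer cells of a type and less RNA per cell cannot be told apart.

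With DcpS shRNA, Pcdh9, Pcdh18, Pcdh17 and Pcdh7 fell, and Pcdh1 and Pcdh19 rose, while Pcdh8, Pcdh10 and Pcdh20 did not pass the test. Of the 9 members, 6 were therefore called, 66.7%, against 5.79% of the 18110 genes tested (limma, Benjamini-Hochberg adjusted p under 0.05). Among the 13703 genes with at least 50 reads on average, limma called 7.54%, and the same 6 members. As the members were chosen with earlier results of these data known, these shares are a description and not a test. The 4 lower calls compare with 3.65% of all genes called lower, and the 2 higher calls with 2.14% called higher. All 9 passed the filter on low counts. The changes were modest: log2 fold changes ran from −0.45 to 0.35, and 0 of the 9 reached 1.5-fold. Their median was −0.29, against 0.00 for all genes tested, and the median size without regard to sign was 0.35 against 0.11. Without control 2, calls fell to 3 of 9, Pcdh9, Pcdh17 and Pcdh18. DESeq2 called 4 of 9, those 3 and Pcdh1, against 2.47% of all genes tested. With edgeR's quasi-likelihood test all 6 were called, against 5.77% of all genes tested.

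Pcdh9 differs from the other members in a short 3′ UTR sequence that it shares with Dcps. The 7-base words ACGTGCA and CACGTGC, chosen with earlier results of these data known, both occur in the 3′ UTR of the Dcps transcript, and of the 9 members only Pcdh9 has either in an annotated 3′ UTR (GENCODE M21, transcript strand). The 2 words overlap in both genes, and a run of 10 bases is shared. The sites are printed 5′ to 3′ with that run in capitals, because Pcdh9 is the member with the smallest p and Dcps the gene targeted.
Pcdh9: atctcagtTGCACGTGCAaacaaatcca
Dcps: ctatcaccTGCACGTGCAtttcacagct

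The Pcdh9 site lies at chr14:93014121-93014148 on the minus strand of GRCm38, in the 3′ UTR, where the run starts at base 1372 of 2102 in the longest annotated form. It is present in 3 of the 5 Pcdh9 transcripts whose 3′ UTR could be scanned. The Dcps site lies at chr9:35124746-35124773, also on the minus strand and in the 3′ UTR, with the run starting at base 125 of 478. Among 13699 scanned genes 8% had either word there. The share was 33.1% of the 646 called lower, 6.25% of the 368 called higher and 6.77% of the 12685 not called. As the words were chosen with earlier results of these data known, these shares are a description and not a test. The 10-base run was present in 25 scanned genes. Pcdh9 and Dcps, which defined the run, are 2 of the 4 of these that limma called lower. Of the other 23, 2 were called lower and 0 higher, with a median log2 fold change of −0.07. The remaining 3 lower members, Pcdh7, Pcdh17 and Pcdh18, have neither word in an annotated 3′ UTR. The sequence of the hairpin is not given in the sources used here, and the part of this site in the change of Pcdh9 was not tested.

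Among the delta-1 genes Pcdh9 and Pcdh7 fell and Pcdh1 rose, and Pcdh9 had the smallest p of the 9. Pcdh9 (ENSMUSG00000055421.8, chr14:93013410-93890679) encodes an adhesion protein of cortical neurons that has been linked to autism. The control libraries held 962.5 and 943.5 normalised reads of it, the DcpS shRNA libraries 706.9 and 702.9. The groups did not overlap, and replicates lay close together (953 ± 13.5 and 705 ± 2.80, SD, n = 2 per group). The log2 fold change was −0.43 (SE 0.06, limma, Benjamini-Hochberg adjusted p 0.000573), and it stayed between −0.45 and −0.42 in all 13 alternative settings.

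Pcdh7 (ENSMUSG00000029108.14, chr5:57717967-58133230) encodes a protein whose tail binds protein phosphatase 1 and the SET protein. It gave 1054 and 1120 normalised reads in control cultures, against 848.6 and 927.5 after DcpS shRNA. Both DcpS shRNA values were below both controls, at 81.7% of the control mean. The log2 fold change was −0.29 (SE 0.07, limma, Benjamini-Hochberg adjusted p 0.015). The call ended without control 2 (limma, adjusted p 0.129) and with DESeq2 (adjusted p 0.0912). An opposite-strand gene, 4932441J04Rik, shares 2235 exon bases with Pcdh7, at 11.2 to 27.7 normalised reads, so reads of the pair may not be told apart if strand was not used. Shorter opposite-strand overlaps, of 436, 154 and 57 exon bases, are annotated for Pcdh8, Pcdh10 and Pcdh19.

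Pcdh1 (ENSMUSG00000051375.15, chr18:38185914-38212053), an adhesion protein of epithelia and brain that can bind Smad3, moved the other way. The control libraries held 687.9 and 633.8 normalised reads of it, the DcpS shRNA libraries 852.2 and 837. Both DcpS shRNA libraries were above both controls, at 128% of the control mean. The log2 fold change was 0.35 (SE 0.07, limma, Benjamini-Hochberg adjusted p 0.00541). Without control 2 the call ended, at a log2 fold change of 0.30 (limma, adjusted p 0.0534). Pcdh11x, a delta-1 gene outside the 9, had 152 and 166.1 normalised reads in control cultures, against 152.6 and 176.6 after DcpS shRNA, and was not called.

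**Figure D1:**
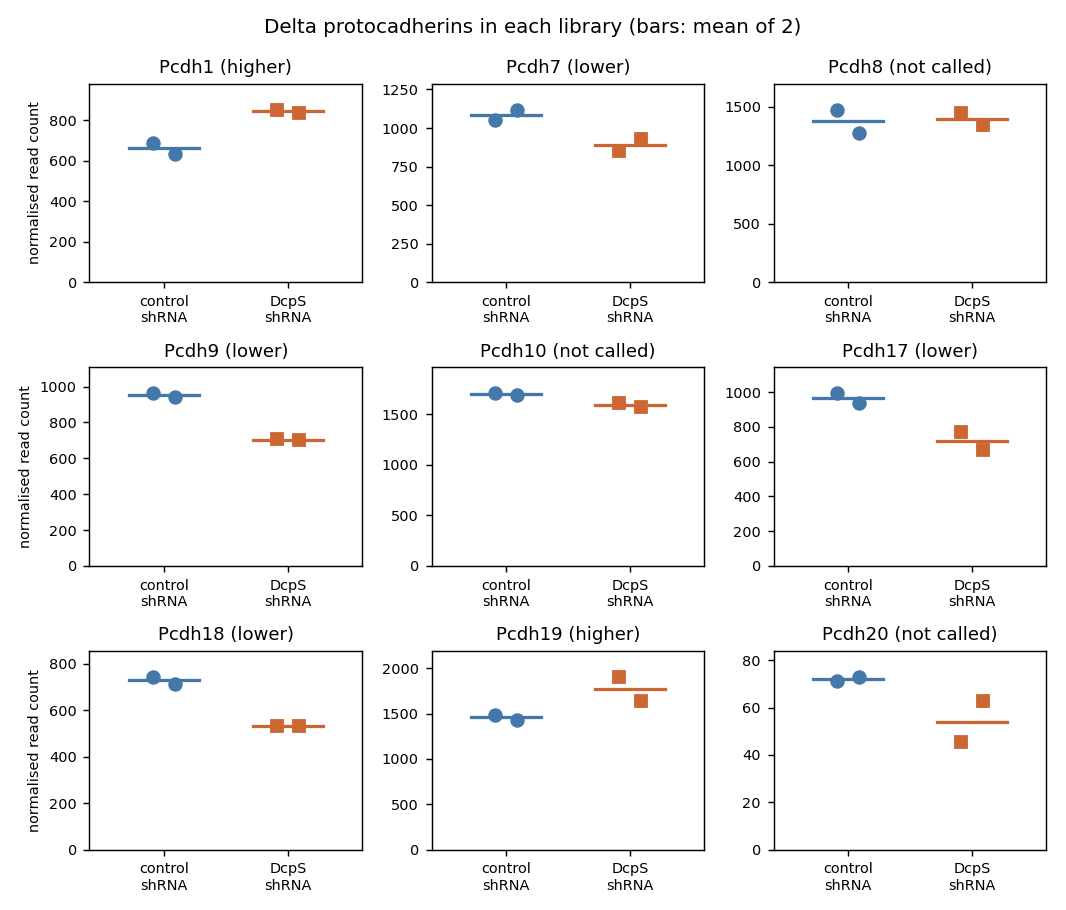
Normalised read count (vertical axis, from 0) of each delta protocadherin in the 2 control shRNA libraries (circles) and the 2 DcpS shRNA libraries (squares), with horizontal bars at the group means. Circles and squares are apart for every member except Pcdh8, and the panel titles give the call at an adjusted p under 0.05.

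Among the delta-2 genes Pcdh18 and Pcdh17 fell, Pcdh19 rose, and Pcdh8 and Pcdh10 were not called. Pcdh18 (ENSMUSG00000037892.13, chr3:49743296-49757325) encodes a protein whose tail was found to bind the reelin-pathway adaptor Dab1. It gave 742.1 and 713.8 normalised reads in control cultures, against 531.5 and 530.8 after DcpS shRNA. The DcpS shRNA libraries were nearly equal and lay at 73.0% of the control mean. The log2 fold change was −0.45 (SE 0.07, limma, Benjamini-Hochberg adjusted p 0.000983), and between −0.48 and −0.43 in the 13 alternatives.

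Pcdh17 (ENSMUSG00000035566.7, chr14:84443563-84539002) is a recruiter of the WAVE complex in growing axons and is also found at synapses. The control libraries held 992.9 and 936.3 normalised reads of it, the DcpS shRNA libraries 770.5 and 669.4. The groups did not overlap, although the DcpS shRNA replicates were further apart (720 ± 71.5, SD, n = 2) than those of Pcdh18. The log2 fold change was −0.42 (SE 0.07, limma, Benjamini-Hochberg adjusted p 0.00239). Its call held in all 13 alternatives, with values between −0.53 and −0.32.

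Pcdh19 (ENSMUSG00000051323.16, chrX:133582860-133688987) is known from an X-linked epilepsy and acts together with N-cadherin. It gave 1489 and 1434 normalised reads in control cultures, against 1900 and 1636 after DcpS shRNA. Both DcpS shRNA libraries were higher, but they differed from each other by more than the lower of them differed from the controls. The log2 fold change was 0.27 (SE 0.07, limma, Benjamini-Hochberg adjusted p 0.025). Without DcpS shRNA 1, the higher library, the value dropped to 0.16 and the call ended (limma, adjusted p 0.104). The call also ended without control 2 (limma, adjusted p 0.0908) and with DESeq2 (adjusted p 0.0802).

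Pcdh10 (ENSMUSG00000049100.15, chr3:45378398-45435623) binds Nckap1 of the WAVE complex and takes part in axon growth and synapse elimination. The control libraries held 1709 and 1693 normalised reads of it, the DcpS shRNA libraries 1614 and 1570. The DcpS shRNA values were below the controls by a small margin, and the log2 difference of −0.10 had a 95% interval from −0.21 to 0.02 (limma, Benjamini-Hochberg adjusted p 0.379). Pcdh8 (ENSMUSG00000036422.10, chr14:79766775-79771312), also called arcadlin, is induced by neuronal activity and drives the uptake of N-cadherin through the kinase Taok2. It gave 1477 and 1274 normalised reads in control cultures, against 1446 and 1345 after DcpS shRNA. Its groups overlapped, with a log2 difference of 0.02 and a 95% interval from −0.12 to 0.17 (limma, Benjamini-Hochberg adjusted p 0.903). Its sign turned without control 2 (−0.08) and without DcpS shRNA 1 (−0.03).

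Pcdh20 (ENSMUSG00000050505.7, chr14:88464743-88471396) was the least abundant member. It rested on 75 and 71 recovered reads in control cultures, against 50 and 56 after DcpS shRNA, or 71.3, 72.8, 45.4 and 62.6 normalised reads. Both DcpS shRNA values were lower, and the log2 difference of −0.43 was close to that of Pcdh9. Its 95% interval ran from −0.86 to 0.00, and the gene was not called (limma, Benjamini-Hochberg adjusted p 0.272). Without DcpS shRNA 1 the log2 difference was −0.20 and without DcpS shRNA 2 it was −0.65.

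Separation of the groups alone was common in this table. Both DcpS shRNA libraries were below both controls for 6 members and above them for 2, against 24.0% and 24.4% of all genes tested. With 2 libraries a group, exact permutation of one gene's values reaches no two-sided p under 0.333, so the calls rest on limma's pooled spread.

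**Figure D2:**
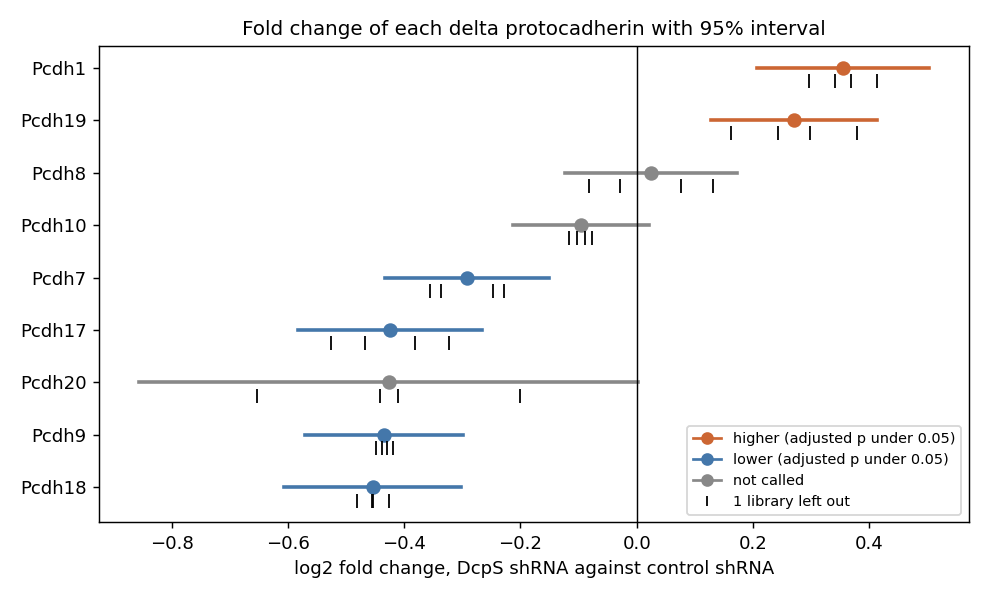
Log2 fold change of each member with DcpS shRNA against control shRNA (horizontal axis), with limma's 95% interval as a line and, as small ticks under it, the value after leaving out each library in turn. The 4 lower and 2 higher calls stand clear of 0, the ticks of Pcdh9 lie between −0.45 and −0.42, and those of Pcdh20 spread from −0.65 to −0.20.

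The summed level of the family and each member's share of it are given as a description, without a test. The 9 genes summed to 9185 and 8821 normalised reads in control cultures, against 8715 and 8282 after DcpS shRNA. Pcdh19 made up 16.2% and 16.3% of that sum in control cultures, against 21.8% and 19.8% after DcpS shRNA. Pcdh1 made up 7.49% and 7.19%, then 9.78% and 10.1%. The share of Pcdh9 was lower, at 10.5% and 10.7% in the controls and 8.11% and 8.49% after DcpS shRNA, and so was that of Pcdh18, at 8.08% and 8.09%, then 6.1% and 6.41%. Both DcpS shRNA libraries held a larger share of Pcdh19 and Pcdh1 than either control. The share of Pcdh10, between 18.5% and 19.2%, overlapped between the groups.

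The shares above are not corrected for length, so members were ordered by level per kilobase of merged exons. Pcdh8 was the most abundant per length, with 303 ± 31.6 normalised reads per kb in the controls and 308 ± 15.7 with DcpS shRNA (SD, n = 2 per group). In the controls Pcdh9 (141), Pcdh19 (140) and Pcdh18 (136) followed, with library values that overlapped between neighbours, so their order is not resolved. Pcdh10 (107), Pcdh7 (103), Pcdh1 (75.1) and Pcdh17 (74.3) came next, of which Pcdh1 and Pcdh17 overlapped. Pcdh20 was last at 13.1 ± 0.200. With DcpS shRNA, Pcdh19 stood at 169 ± 17.8 and Pcdh9 at 104 ± 0.413 normalised reads per kb, with no overlap between their library values. Pcdh1 (96.0) was then above Pcdh7 (83.8), the reverse of their order per merged exon length in the controls. Merged exons count all annotated isoforms, and the control order depended on this choice. Per kb of the longest protein-coding transcript Pcdh10 moved from the fifth to the second place in the controls, at 207 normalised reads per kb. On that length Pcdh7 (119.9 and 127.5) and Pcdh1 (127 and 117) overlapped in the control libraries, so their order is not resolved, and Pcdh17 was at 84.2.

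**Figure D3:**
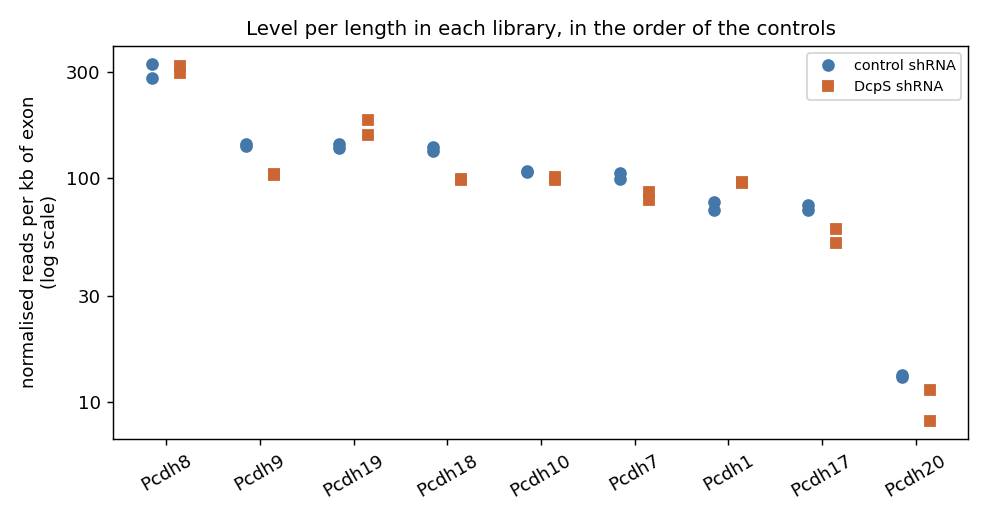
Normalised reads per kb of merged exon (vertical log axis) for each member in the 2 control (circles) and 2 DcpS shRNA (squares) libraries, ordered by the control mean. Pcdh8 is highest in both groups and Pcdh20 lowest, while Pcdh9 and Pcdh19, level in the controls, are apart with DcpS shRNA.

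Calls among genes next to the members are given beside the 5.79% that limma called of all 18110 genes tested. Pcdh8, Pcdh17, Pcdh20 and Pcdh9 lie along 14.1 Mb of chromosome 14, an interval that holds 10 other tested genes. Of these, 1 was called higher by limma, Olfm4, a secreted glycoprotein (log2 fold change 0.79). Leaving out DcpS shRNA 1 ended that call (limma adjusted p 0.0717), as did DESeq2 (adjusted p 0.137). Between Pcdh10 and Pcdh18, on 4.38 Mb of chromosome 3, 0 of 6 other tested genes were called by limma, edgeR or DESeq2, and 0 had an unadjusted limma p under 0.05.

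The genes most alike in pattern were found by distance between centred log2 profiles over the 4 libraries, among genes of similar level. The closest to Pcdh18 were Unc79 (distance 0.02 on the log2 scale), a subunit of the NALCN sodium leak channel complex, and Pcdh9 (0.03). For Pcdh9 they were also Unc79 (0.02) and A330084C13Rik (0.02). Pcdh17 was closest to the gamma protocadherin Pcdhgc3 (0.05) and to Pitpnm2 (0.06), and Pcdh7 to the focal adhesion gene Pxn (0.04) and to Eri3 (0.04). Pcdh1 was closest to Aif1l (0.03) and Gt(ROSA)26Sor (0.04), and Pcdh19 to Srcin1 (0.03) and the immediate early gene Jun (0.05). With 4 libraries in 2 groups, such a distance mostly reflects a like fold change.

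Transcripts of the proteins that delta protocadherins bind inside the cell had 1 call in all. Of 10 tested WAVE complex genes, 1 was higher and 0 lower by limma: Wasf1, the neuronal WAVE protein (log2 fold change 0.23, SE 0.05). It gave 2031 and 2041 normalised reads in control cultures, against 2368 and 2406 after DcpS shRNA. Leaving out control 1 or control 2 ended the call (limma adjusted p 0.109 and 0.102), as did DESeq2 (adjusted p 0.0665). Cyfip2 (0.15) and Cyfip1 (−0.17), subunits that link the complex to Rac, did not pass (limma, Benjamini-Hochberg adjusted p 0.0958 and 0.136). Cyfip1 passed without DcpS shRNA 1 (−0.26, adjusted p 0.00172) and Cyfip2 without DcpS shRNA 2 (0.16, adjusted p 0.0291). The median of the WAVE list was 0.02.

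Of 16 other partners and regulators, such as Ppp1ca, Set, Taok2, Dab1, Cdh2 and Smad3, 0 were called by limma, edgeR or DESeq2, and 4 had an unadjusted limma p under 0.05. The list's median was −0.04. The smallest adjusted p-values were those of the transcription factor Mef2c (log2 fold change −0.18, limma, Benjamini-Hochberg adjusted p 0.0588), the cadherin Cdh11 (−0.21, 0.0598) and the transcription factor Mef2a (−0.15, 0.162). All 3 passed without DcpS shRNA 1 (limma, Benjamini-Hochberg adjusted p 0.015, 0.0191 and 0.0346). Mef2c also passed without DcpS shRNA 2 (0.0384), and Cdh11 without control 1 (0.0336).

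Most other cadherins did not pass the test, as was so for all genes tested, of which limma called 5.79%. Of 16 tested type I, type II and related cadherins, 1 was lower and 0 higher by limma (6.25%), with a median of −0.07. That gene was Cdh8, a type II cadherin of cortical neurons, with 1009 and 976.3 normalised reads in control cultures, against 612.4 and 713 after DcpS shRNA (log2 fold change −0.59, SE 0.08). Of 55 tested clustered protocadherins, 5 were lower and 0 higher by limma (9.09%), with a median of −0.18, and DESeq2 called 1. All 5 are gamma genes, among them Pcdhgc3 (−0.39), the gene closest in pattern to Pcdh17. Gamma transcripts share their last exons, so how reads were split between them is uncertain. The word CACGTGC is in the annotated 3′ UTR of all 20 gamma genes scanned, the 5 called lower and 15 that were not called. As the last exons are shared, these need not be 20 separate sites. Nearly all tested gamma genes had a negative fold change, called or not. A missing call does not show that a gene was unchanged: 17 of the 55 clustered genes had an unadjusted limma p under 0.05. The part of the word in the changes of gamma genes was not tested. Differences between these lists and the 9 members were not tested.

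**Figure D4:**
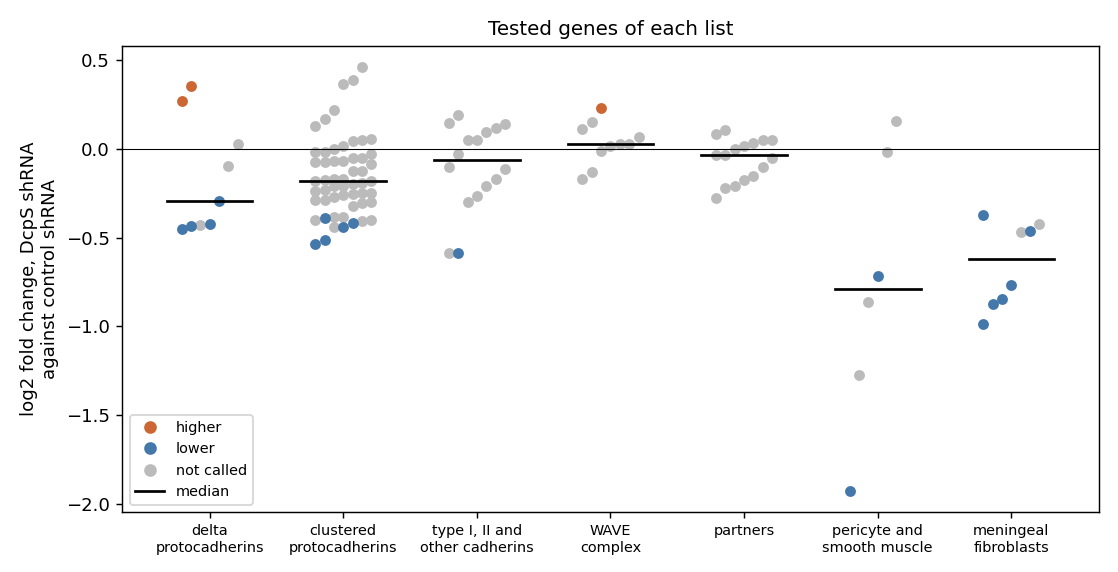
Log2 fold change with DcpS shRNA against control shRNA (vertical axis) of every tested gene in 7 lists, coloured by call, with a line at each list's median. The 9 delta protocadherins lie on both sides of 0 with 6 called, 16 partners have none called, and the pericyte and fibroblast markers have medians of −0.79 and −0.62.

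Several markers of other cell types were lower, as were 4 of the members. Of 8 meningeal fibroblast markers, 6 were lower and 0 higher by limma, with a median of −0.62, led by the collagens Col1a1 (−0.87), Col3a1 (−0.77) and Col1a2 (−0.85). Of 6 tested pericyte and smooth muscle markers, 2 were lower, Acta2 (−1.93) and Pdgfrb (−0.72). Notch3, with the most reads of that list, had the opposite sign (0.16) and was not called (limma, Benjamini-Hochberg adjusted p 0.248). The list of 7 summed to 1279 and 1299 normalised reads in control cultures, against 1091 and 1023 after DcpS shRNA. Of 4 tested astrocyte markers, Gja1 (−0.67), Aqp4 (−1.13) and Gfap (−0.91) were lower, with list sums of 959 and 1076 against 593 and 659. Leaving out control 2 ended the call of Gfap (−0.51, limma adjusted p 0.212). Endothelial markers summed to 105 and 151 in control cultures, against 86.3 and 87.2 after DcpS shRNA, and Cldn5, an endothelial tight-junction gene, was listed at 0 in 1 library of each group. Of 3 tested endothelial genes the VEGF receptor Kdr was lower (−0.74), but not with control 2 left out (limma adjusted p 0.251). The adhesion molecule Pecam1 (0.935) and the cadherin Cdh5 (−0.59) had values of opposite sign and did not pass (limma, Benjamini-Hochberg adjusted p 0.263 and 0.71). DESeq2 called neither Kdr nor Aqp4. The part of these cells in the lower values of Pcdh18, Pcdh9, Pcdh17 and Pcdh7 was not tested. Acta2 has both words, ACGTGCA and CACGTGC, in an annotated 3′ UTR, and Gja1 has ACGTGCA. They are not the only genes of the lists with a word. Mef2a has both, and Smad3 and the upper-layer factor Pou3f2 have CACGTGC. The part of the words in the values of these genes was not tested.

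Markers of neurons and progenitors were called in both directions. Of 6 pan-neuronal genes, the splicing regulator Rbfox3 was higher (0.24) and the SNARE gene Snap25 lower (−0.26), and leaving out control 2 or control 1 ended these calls (limma adjusted p 0.318 and 0.0692). By limma, edgeR and DESeq2, 0 of 5 deep-layer, 0 of 7 interneuron, 0 of 4 Cajal-Retzius and 0 of 5 tested microglial genes were called, with 0, 1, 0 and 1 at an unadjusted limma p under 0.05. Upper-layer, radial glia, intermediate progenitor and oligodendrocyte-lineage lists had 1 call each, among 5, 7, 3 and 4 tested genes. The upper-layer transcription factor Pou3f2 was lower (−0.25), a call that ended without control 1 (−0.20). Rorb, of the same list, had the opposite sign (0.31) and did not pass (limma, Benjamini-Hochberg adjusted p 0.0853). The intermediate filament gene Nes of radial glia was higher (0.27) and stayed called in all 13 alternatives. Neurod4, a transcription factor of intermediate progenitors, was higher (0.67), a call that ended without control 2 (0.49). Neurog2, of the same list as Neurod4, had the opposite sign (−0.19) and did not pass (limma, Benjamini-Hochberg adjusted p 0.272). The myelin gene Mbp was higher (0.47), but not without control 1 or DcpS shRNA 2 (limma adjusted p 0.177 and 0.0618). Olig2 (−0.79) and Olig1 (−0.58), of the same list as Mbp, had the opposite sign and did not pass (limma, Benjamini-Hochberg adjusted p 0.173 and 0.213). The median of that list was −0.335. DESeq2 called Nes but not Pou3f2, Neurod4 or Mbp (adjusted p 0.0606, 0.135 and 0.221).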

How the data were processed

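RNA-seq of 4 libraries was analysed from the authors' gene table. The submitters' processing notes name HISAT2 2.2.0, SAMtools 1.3.1, Picard, featureCounts, DESeq2 and GRCm38. Which annotation was used, and whether strand was, is not given in the sources used here. All deposited values are a signal scaled per library by the authors: every value was a whole multiple of its column's smallest positive value (100% within 0.001). Dividing by it recovered reads, and the implied factors equalled median-of-ratios factors. A count of 0 allows 3 reads, counting error only.

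Genes were filtered with filterByExpr (minimum count 10) of edgeR 4.0.16. The deposited values were tested as log2(value + 1) with limma 3.58.1 (R 4.3.3, trend, robust, group only, 2 residual degrees of freedom, two-sided, Benjamini-Hochberg over all genes), which understates changes of low genes. Alternatives were edgeR, DESeq2 1.42.0, other scalings, pseudocounts and filters, a replicate block and leaving out each library. edgeR's quasi-likelihood test on the recovered reads called 1045 genes. The script was tested on simulated data. Lengths, loci and 3′ UTRs came from GENCODE M21 (GRCm38). Members and lists were chosen with earlier results of these data known. All members and Dcps are named, up to 3 genes per list by adjusted p, and 2 genes most alike in pattern (within 1 log2 unit of mean level) per called member. Notch3 is named besides, as the gene with the most reads of its list.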

Additional observations from a re-analysis of the deposited data

How the results depend on the processing

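Over 13 alternatives the 9 fold changes kept direction and call in 109 of 117 cases. Pcdh9, Pcdh17 and Pcdh18 were called in all 13. Leaving out each library in turn gave 3 to 6 called members and 747 to 1745 called genes, with 747 without control 2 and 1745 without DcpS shRNA 1, against 1048. DESeq2 called 448 genes and 4 members. The replicate block raised the gene count to 1626 and called the same 6 members; same-numbered libraries hardly deviated together (correlation 0.043), and the labels do not say that a number pairs them. Calls ended for Pcdh7 and Pcdh19 with DESeq2 and without control 2, for Pcdh1 without control 2 and for Pcdh19 without DcpS shRNA 1 (leaving out a library fits 3 samples); the cause with DESeq2 was not tested. Pcdh8 ran from −0.082 to 0.131 over the libraries left out and turned negative without control 2 (−0.082) and without DcpS shRNA 1 (−0.028). Where a group keeps 1 library, that library is assumed to vary like the others. Pcdh20 rested on 50 to 75 reads per library; the parts of depth and replicate spread in its missing call were not told apart.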
